A study of Sus scrofa with 22 samples.

Results

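The trophectoderm of the elongating pig conceptus is covered by 3 of the cell groups that the study's authors formed, TE_E12, TE_E13 and TE_E14, the trophectoderm (TE) of embryonic days 12, 13 and 14. Cell names in the count table gave the library but not the group, so the cells were found from the authors' deposited group means, by fitting each group's mean by least squares on the log2 values of all cells and taking those whose weight lay above the midpoint between 0 and the largest weight. This gave 54 cells of 1647 in the series, 9 of E12, 34 of E13 and 11 of E14. Means recomputed over these cells were within 0.001 of the deposited ones for 99.89%, 99.86% and 99.90% of genes. The 9 cells of E12 lay in library P10. Those of E13 lay in P9 with 8 cells, P10 with 7, P18 with 10 and P19 with 9, and those of E14 in P12 with 10 cells and P11 with 1. They were set against 55 cells of earlier trophectoderm (TE_E7 with 14 cells, TE_E8 with 23, TE_E9 with 2 and TE_E10 with 16), and, inside their own libraries, beside the ectoderm, mesoderm and endoderm cells of the same day. All came from pig embryos collected before implantation, with no treatment and no strain given in the labels; the series also holds cultured stem cells, which were not used here. The labels do not say whether libraries were separate embryos, nor how the authors named the groups.

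The trophectoderm is the outer epithelium of the blastocyst and the source of the fetal part of the placenta. In the pig the conceptus lengthens from a sphere into a thread in the uterine lumen, and only then attaches. During this time the trophectoderm is known to make estrogens, the signal by which the sow recognises pregnancy, together with prostaglandins, and to secrete interferon gamma, a cytokine that most mammals make in immune cells.

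Each value below is a sum of counts over the cells of a library, scaled to the total of the sum (CPM), with edgeR's TMM factors applied in the contrast of late with earlier trophectoderm and without them for single days. Late trophectoderm gave 5 such sums with at least 5 cells (P9, P10, P18, P19 and P12, 53 cells and 11680780 counts), and earlier trophectoderm gave 6 (P3, P4, P5, P6, P8 and P9, 53 cells and 10825910 counts). The lone E14 cell of P11 and the 2 cells of TE_E9 in P17 were too few for a sum in the test. The median late cell held 204049.5 counts over 8992.5 genes, and the median earlier cell 169290 counts over 8063 genes. Only P9 held late and earlier cells together, so elsewhere day and library cannot be told apart. The 54 late cells used 46 plate barcodes, of which 8 served 2 or more of them, and all 96 barcodes of embryonic cells recurred in several libraries, as plate barcodes do.

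Of the markers given for these cells, GATA3, a transcription factor of the trophectoderm, and KRT18, a keratin of simple epithelia, had counts in all 54 cells. GATA3 stood at 349, 341, 310.4 and 542 CPM in late trophectoderm of P10 (E12), P18, P19 (E13) and P12 (E14), against 25.8, 29.7, 37.8 and 81.4 CPM in the other cells of the same day in those libraries. It was at least 4-fold higher in the trophectoderm of all 4. KRT18 was less particular: 1094, 1053 and 927 CPM in late trophectoderm of P10, P18 and P19, against 721, 640.0 and 642 CPM in their other cells. In P12 the order was the other way, 275 CPM in late trophectoderm against 454 CPM in the other cells. The third marker, CYP19A1 (aromatase, which turns androgens into estrogens), had a count in all 9 cells of E12, in 5 of 8, 4 of 7, 4 of 10 and 2 of 9 cells of E13 in P9, P10, P18 and P19, in all 10 E14 cells of P12 and not in the E14 cell of P11. In all, 34 of the 54 late cells had one, against 16 of 55 earlier cells. Of the 262 other cells of those days and libraries 40.1% had one, at a higher median depth (312800 counts). Thinned to 30000 counts per cell, the shares were 45.3% of late cells, 27.3% of earlier cells and 16.5% of the other cells.

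Late and earlier trophectoderm differed in 2249 of 22780 genes tested (9.87%), 1483 higher in late (6.51%) and 766 lower (3.36%), by edgeR's quasi-likelihood test on the library sums at an adjusted p of 0.05. The shares higher and lower are the background for the counts of each gene list below. The count was 1430 without P12, the E14 library, and 787 of 9825 genes tested (8.01%) in a fit on trophectoderm sums alone. Inside P9, 71.7% of 513 genes called higher without that library, and with at least 50 CPM, were higher in its late cells too, against 60.6% of all 2019 such genes that were higher without it. For lower genes the shares were 49.1% of 621 called and 38.9% of 2787 in all. Not every gene named below kept its direction inside P9, in CPM without TMM factors. TIMP3, CCND2 and SLC1A5, called higher, were lower in its late cells, and ARG2 and CYB5A, called lower, were higher. HMGCS1 (35.0 CPM late against 40.5 CPM earlier) and LAMA5 (82.7 against 85.0 CPM), called higher, were nearly level there. CTBS, a lysosomal chitobiase, had 818, 704, 1225, 1758 and 1963 CPM in late trophectoderm of P9, P10, P18, P19 and P12, an order kept for late values below, against a lowest, median and highest of 0, 1.78 and 25.9 CPM in the 6 earlier sums (log2 change 8.62 ± 0.88 SE, adjusted p = 1.93e-09). PLET1, a surface protein known from the mouse trophoblast, had 897, 646, 1688, 2420.5 and 3460.5 CPM in late trophectoderm, against 0, 3.02 and 48.0 CPM in the earlier sums (6.996 ± 0.97, adjusted p = 1.58e-06). Every late sum of both genes lay far above every earlier one, and an absence of overlap was a condition for naming them.

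Several others left so few earlier counts that a fitted change is no measure of size. CORO2A, a coronin that binds actin, had 36.3, 41.6, 54.3, 123 and 119 CPM in late trophectoderm and no count in any earlier sum, so it was at least 263-fold higher in late trophectoderm when set against a floor of 3 counts over the earlier sums (adjusted p = 1.97e-07). ATP10B, a phospholipid flippase, had 119, 58.8, 318, 306 and 188 CPM in late trophectoderm on 2001 counts, against 3 counts in earlier trophectoderm, a ratio of 618 (counting interval 211 to 3000, adjusted p = 7.49e-09). This interval and those below cover the counting of pooled counts alone, not the spread among libraries or cells. For the tight junction protein CLDN3 the ratio was 793 (142 to 31372, on 856 counts against 1), for LYPD6, of the Ly6 family, 599.6 (166 to 4957, on 1294 against 2), and for the metalloproteinase ADAM28 it was 574 (103 to 22696, on 619 against 1). PROM2, a prominin of plasma membrane protrusions, had 1.33, 10.1, 177, 158 and 729 CPM in late trophectoderm and PTI had 29.6, 2.08, 304, 231 and 793 CPM, each on at most 3 earlier counts. Both ran low in P9 and P10 and high in P18, P19 and P12. LAMA3, a laminin chain (7.14 ± 1.09), SELENOP, a selenium carrier (6.60 ± 0.71), and PAG6, given below with the secreted signals, completed the 12 largest gains.

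Among the losses, NAAA, a lysosomal amidase of fatty acid ethanolamides, had 18.1, 9.79, 13.9, 4.09 and 1.23 CPM in late trophectoderm, against 287, 489 and 629 CPM as the lowest, median and highest earlier sums (-5.63 ± 0.54, adjusted p = 3.72e-10). B4GALT5, a galactosyltransferase of glycolipid synthesis, had 17.3, 17.8, 17.9, 10.6 and 13.9 CPM in late trophectoderm, against 151, 251 and 772 CPM (-4.33 ± 0.44, adjusted p = 1.3e-09). ESRRB, an orphan nuclear receptor of early embryonic cells, had 10.6 CPM in late trophectoderm of P9 and no count in the other 4 late sums, against 12.1, 69.7 and 174 CPM (-5.15 ± 0.97, adjusted p = 0.000247). Metabolic enzymes and carriers filled most of the rest: the acyl-CoA synthetase ACSL6 (-5.08 ± 0.90), FADS3, of the fatty acid desaturase family, (-5.46 ± 0.64), the zinc exporter SLC30A2 (-5.49 ± 0.74), the nucleoside transporter SLC28A3 (-4.65 ± 1.01), the inositol oxygenase MIOX (-4.44 ± 0.86) and the aminopeptidase XPNPEP2 (-5.26 ± 1.02). The adaptor FYB1 (-6.82 ± 0.96), the ATP-gated channel P2RX1 (-6.04 ± 0.96) and TRIM15 (-4.62 ± 1.01) completed the 12. The gain or loss of all 24 genes kept its call with each of the 10 libraries left out in turn. Those fits share most of their data with the contrast that chose the genes.

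**Figure D1:**
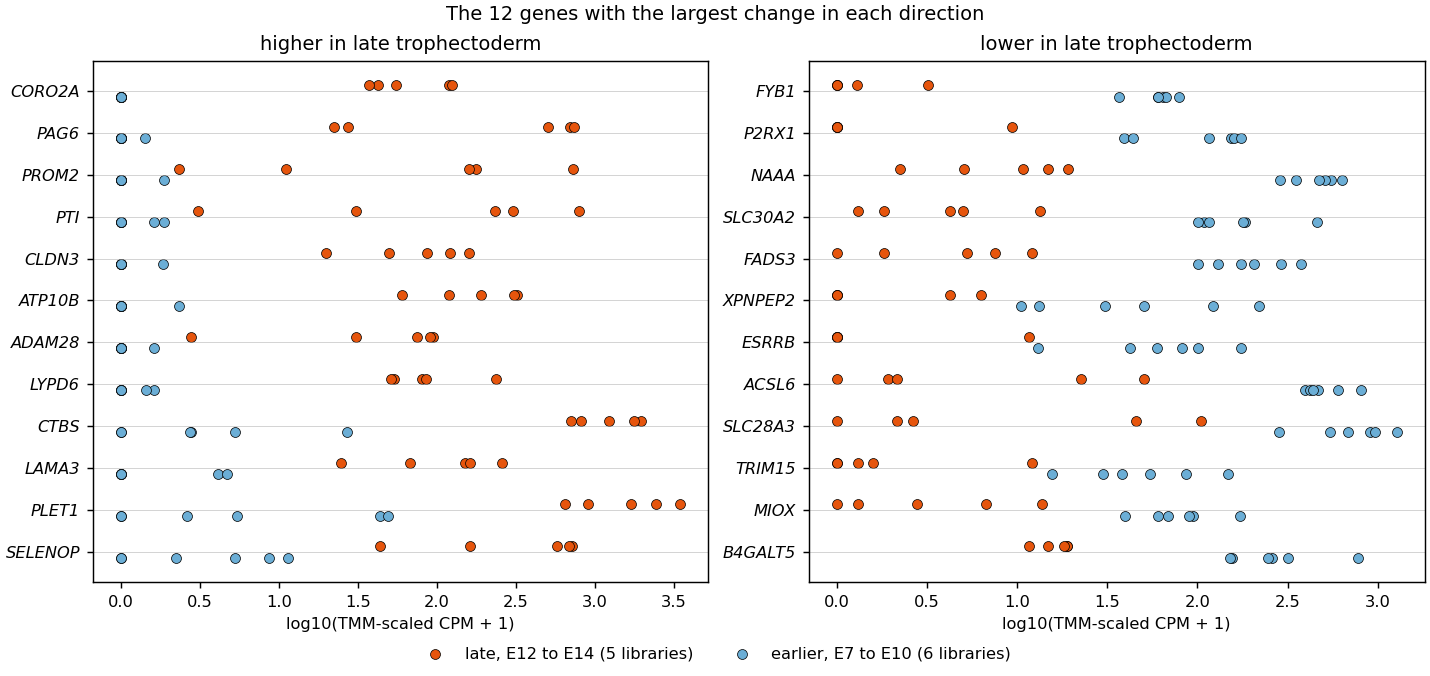
The 12 genes with the largest log2 change in each direction, each point 1 library sum on the scale of log10(TMM-scaled CPM + 1), orange for late (5 libraries) and blue for earlier trophectoderm (6 libraries). In all 24 genes the late points do not overlap the earlier ones, which was a condition of their choice. CORO2A has all 6 earlier points at 0.

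Among transcription factors of the trophectoderm, PPARG, HAND1 and TP63 rose and KLF5 fell. Of 21 tested, 6 rose and 1 fell, with a list median of 0.77 on the log2 scale against 0 over all genes tested. PPARG, a nuclear receptor needed for the mouse placenta, had 95.6, 78.1, 97.6, 128 and 40.9 CPM in late trophectoderm, against 0, 0.882 and 3.70 CPM in earlier trophectoderm (6.52 ± 0.76, adjusted p = 3.18e-08). HAND1, which in the mouse drives trophoblast giant cells and is also made in extraembryonic mesoderm, had 412, 380.2, 851, 769 and 568 CPM in late trophectoderm, against 0, 6.20 and 68.9 CPM (5.27 ± 0.84, adjusted p = 1.69e-05). The earlier sums with most HAND1 were those of P6 and P5, which hold the E10 cells. In neither gene did the groups overlap, as held for 2.16% of all genes tested in this direction.

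TP63, known from the progenitor layer of the human placenta, rose by 4.17 ± 1.07 (adjusted p = 0.00882) and ARID3A, which in the mouse acts on trophoblast genes, by 1.74 ± 0.44 (adjusted p = 0.00641). GRHL2, a grainyhead factor of epithelia, rose by 2.002 ± 0.55 but lost its call without P12 (adjusted p = 0.0637), and EOMES rose by 3.89 ± 1.14 but lost its call without P4, P8 or P18 (adjusted p up to 0.171). EOMES had no count in late trophectoderm of P9 and P12 and up to 37.5 CPM in that of P18, and in P18 the other cells of E13 held 92.9 CPM. KLF5, a Krüppel-like factor of the early trophectoderm, fell: 38.9, 24.6, 15.6, 2.45 and 16.3 CPM in late trophectoderm, against 119, 138 and 248 CPM (-2.95 ± 0.45, adjusted p = 6.63e-06). GATA3 had 337, 314, 331, 332 and 521 CPM in late trophectoderm, against 185, 212 and 239 CPM, groups that did not overlap (2.16% of all genes did so in this direction), yet its change of 0.79 ± 0.49 missed the threshold (adjusted p = 0.313). GATA2 (-0.06 ± 0.55), TFAP2A (0.77 ± 0.45), TFAP2C (-0.33 ± 0.53), CDX2 (-0.68 ± 0.70) and TEAD4 (-0.69 ± 0.40) did not pass either.

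**Figure D2:**
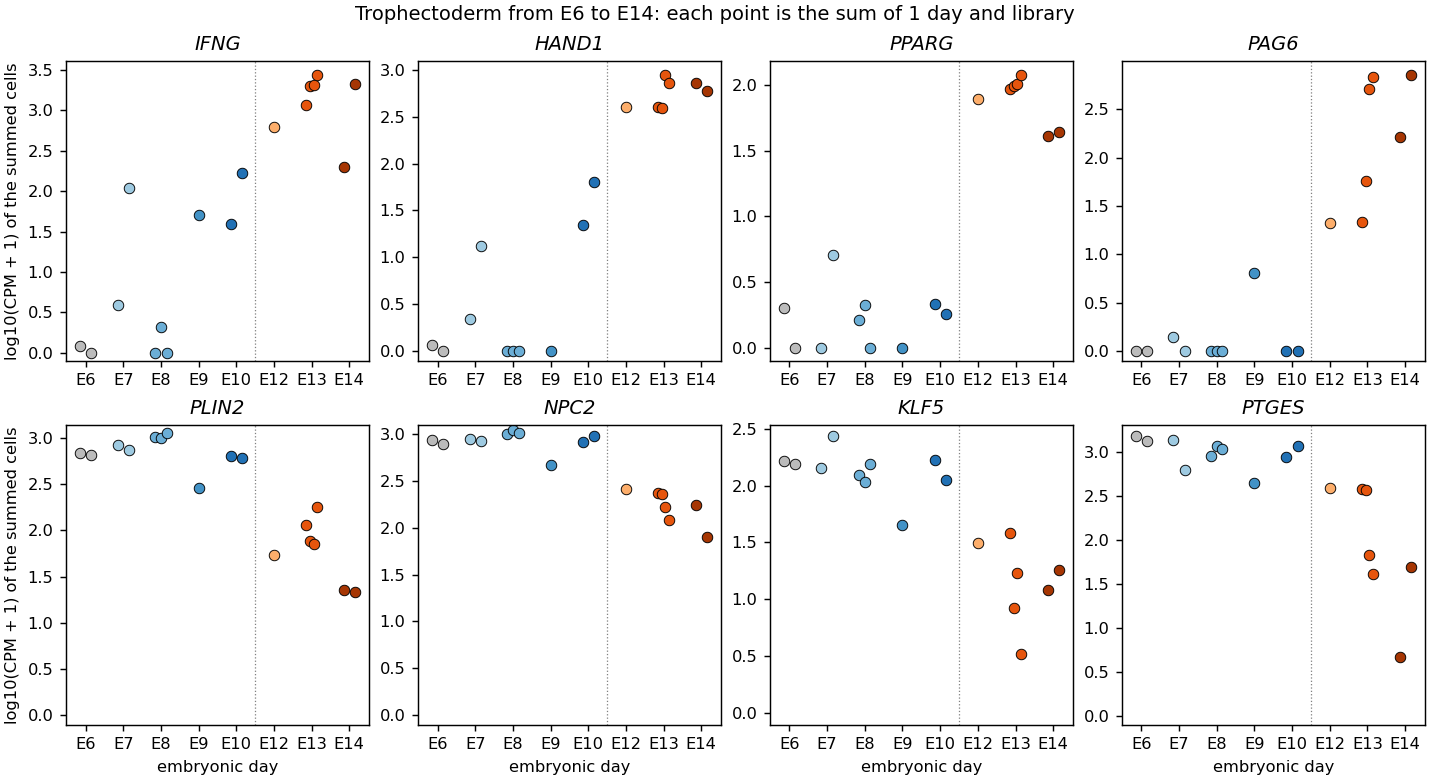
Trophectoderm from E6 to E14, each point the sum of 1 day and library on the scale of log10(CPM + 1), with a dotted line between the earlier and the late groups. IFNG, HAND1, PPARG and PAG6 stand higher at E12 to E14, and PLIN2, NPC2, KLF5 and PTGES lower.

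Of 26 listed secreted signals, IL1B, IL1B2, IL1RN, IGF2, PAG2 and PAG3 had no identifier by name and could not be measured. The 20 that could were led by IFNG, interferon gamma (chromosome 5, 32477906 to 32482670, Sscrofa11.1). It had 1222, 875, 2006, 2938 and 2064 CPM in late trophectoderm, against 0, 16.4 and 182 CPM in earlier trophectoderm (5.199 ± 1.02, adjusted p = 0.000517), and every one of the 54 late cells had counts of it, with 166 CPM in the lowest cell and 4910.2 CPM in the highest. The earlier sum with most IFNG was P6, of E10. The next was P9, of E7, where IFNG stood at 107 CPM in trophectoderm and at 38.9 CPM in the other E7 cells, against 2.86 and 3.30 CPM in the E7 cells of P8, a library without late cells. PAG6, a pregnancy-associated glycoprotein of the trophoblast (chromosome 2, 10311350 to 10386887), had 21.2, 26.4, 501, 729.9 and 689 CPM in late trophectoderm, on 4135 counts against 1 in earlier trophectoderm, a ratio of 3832 (counting interval 687 to 151407, adjusted p = 3.33e-07). It belongs to a family of similar genes whose reads the authors' counting may have divided, so its level is uncertain.

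Of 20 signals tested 6 rose and none fell, with a list median of 2.01, and of these only IFNG and PAG6 kept their call with each library left out in turn. TGFB1 (4.86 ± 1.12), the osteopontin gene SPP1 (on 117 counts against 2) and IL18 (2.48 ± 0.74) stood highest in P12, at 126, 30.2 and 51.4 CPM, and lost their call without it (adjusted p = 0.173, 0.141 and 0.439 in that order). IL18 lost it also without P3, P6 or P8, and PGF, with 45 counts against 3, without 7 of the libraries (P3, P4, P6, P8, P12, P18 and P19, adjusted p up to 0.0805). WNT7A had 19.5, 24.6, 79.1, 99.0 and 109 CPM in late trophectoderm, against 0, 2.37 and 25.8 CPM, and did not pass (3.05 ± 1.06, adjusted p = 0.0576).

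Genes of the interferon response were low and depended on single libraries. Of 14 tested 4 rose, among them ISG15, MX1 and IFNAR2, with a list median of 1.49, and none of the 4 kept its call with each library left out in turn (adjusted p up to 0.47 for ISG15, 0.153 for MX1 and 0.26 for IFNAR2). ISG15, an ubiquitin-like protein, had 1.33, 4.75, 4.04, 145 and 25.2 CPM in late trophectoderm, against 0, 2.38 and 13.1 CPM in earlier trophectoderm. The P19 value rested on few cells: 4 of its 9 had a count and the highest stood at 575 CPM. MX1, a GTPase against viruses, also stood highest in P19, at 47.5 CPM against 8.01 CPM or less in the other late sums, and lost its call without it; ISG15 lost it without P8 or P19. IFNAR2 lost its call without P3, P5, P6, P8, P12, P18 or P19. IFNGR1, the receptor chain that binds interferon gamma, had 0.443, 1.78, 5.77, 0.818 and 17.9 CPM in late trophectoderm (0.16 ± 0.64, adjusted p = 0.954).

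Most genes of steroid synthesis did not pass between late and earlier trophectoderm, and several varied from day to day inside each. Of 18 tested 3 rose and 1 fell, against 6.51% and 3.36% of all genes tested, with a list median of 0.05. HMGCS1, an early enzyme of cholesterol synthesis, had 36.3, 56.1, 197, 242 and 231 CPM in late trophectoderm, against 31.5, 43.3 and 63.8 CPM (1.74 ± 0.37, adjusted p = 0.00106), and kept its call with each library left out. CYB5A, a partner of CYP17A1 (-1.07 ± 0.34), lost its call without P3, P4, P5, P6, P8, P12 or P18 (adjusted p up to 0.119). SULT2A1, a steroid sulfotransferase with 64 late counts and none earlier, at least 19.8-fold higher, lost it without P3, P4, P5, P6, P8 or P12 (adjusted p up to 0.173).

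CYP17A1, which makes androgens from progesterone, and CYP19A1 followed an uneven course over the days. At E10 they stood at 294 and 538 CPM (CYP17A1) and at 84.2 and 299 CPM (CYP19A1) in trophectoderm of P5 and P6. At E12 they stood at 264 and 176 CPM in P10, and all 9 cells had counts of both. At E13 CYP17A1 had 36.7, 16.2, 5.96 and 30.6 CPM and CYP19A1 5.54, 7.35, 28.6 and 12.996 CPM in P9, P10, P18 and P19. At E14 they returned to 467 and 484 CPM in P12, with counts of both in all 10 cells. Before E10 their highest sums were 11.4 CPM for CYP17A1 and 2.98 CPM for CYP19A1. The contrast of late with earlier trophectoderm, which averages over these days, gave 0.10 ± 1.26 for CYP17A1 and 0.99 ± 1.16 for CYP19A1 (adjusted p = 1 and 0.629). Pig aromatase has closely related gene copies, and the handling of reads shared between them is not stated in the labels.

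CYP11A1, the enzyme that starts steroid synthesis in mitochondria, went another way. It had 419.9 CPM at E12, then 237, 145, 297 and 346 CPM at E13, and 15.7 CPM at E14, where 3 of the 10 cells of P12 had a count. STAR, which carries cholesterol to that enzyme, had 287 CPM at E12, 77.6, 49.96, 31.0 and 18.3 CPM at E13 and 27.3 CPM at E14. HSD17B1, which makes estradiol from estrone, had 712 CPM at E12, 763, 886, 177.5 and 89.4 CPM at E13 and 597 CPM at E14.

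Prostaglandin genes changed in opposite directions. Of 14 tested 3 rose and 1 fell, with a list median of 0.09. PTGES, the synthase of prostaglandin E2, had 395, 369, 64.1, 42.5 and 46.2 CPM in late trophectoderm, against 575, 1099 and 1458 CPM (-2.55 ± 0.48, adjusted p = 2e-04). AKR1B1, an aldose reductase that can make prostaglandin F2 alpha, had 548, 410.5, 1196, 1349 and 1647 CPM in late trophectoderm, against 99.8, 412 and 512 CPM (1.42 ± 0.33, adjusted p = 0.00328), and the lowest late sum, P10, lay inside the earlier range. Both kept their call with each library left out, while PTGS1 (3.71 ± 1.07) lost it without P4, P12 or P18 (adjusted p up to 0.0698) and TBXAS1, on 39 counts against 1, without P3, P4, P6, P8 or P19 (adjusted p up to 0.243). PTGS2, the inducible cyclooxygenase, had 664, 653, 64.1, 74.5 and 184 CPM in late trophectoderm, against 125, 369 and 778 CPM, with no difference past the threshold (-0.16 ± 0.71, adjusted p = 0.968). Its days varied too: the authors' deposited means of log2(CPM/10 + 1) were 2.552 at E10, 5.834 at E12, 3.618 at E13 and 3.884 at E14.

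**Figure D3:**
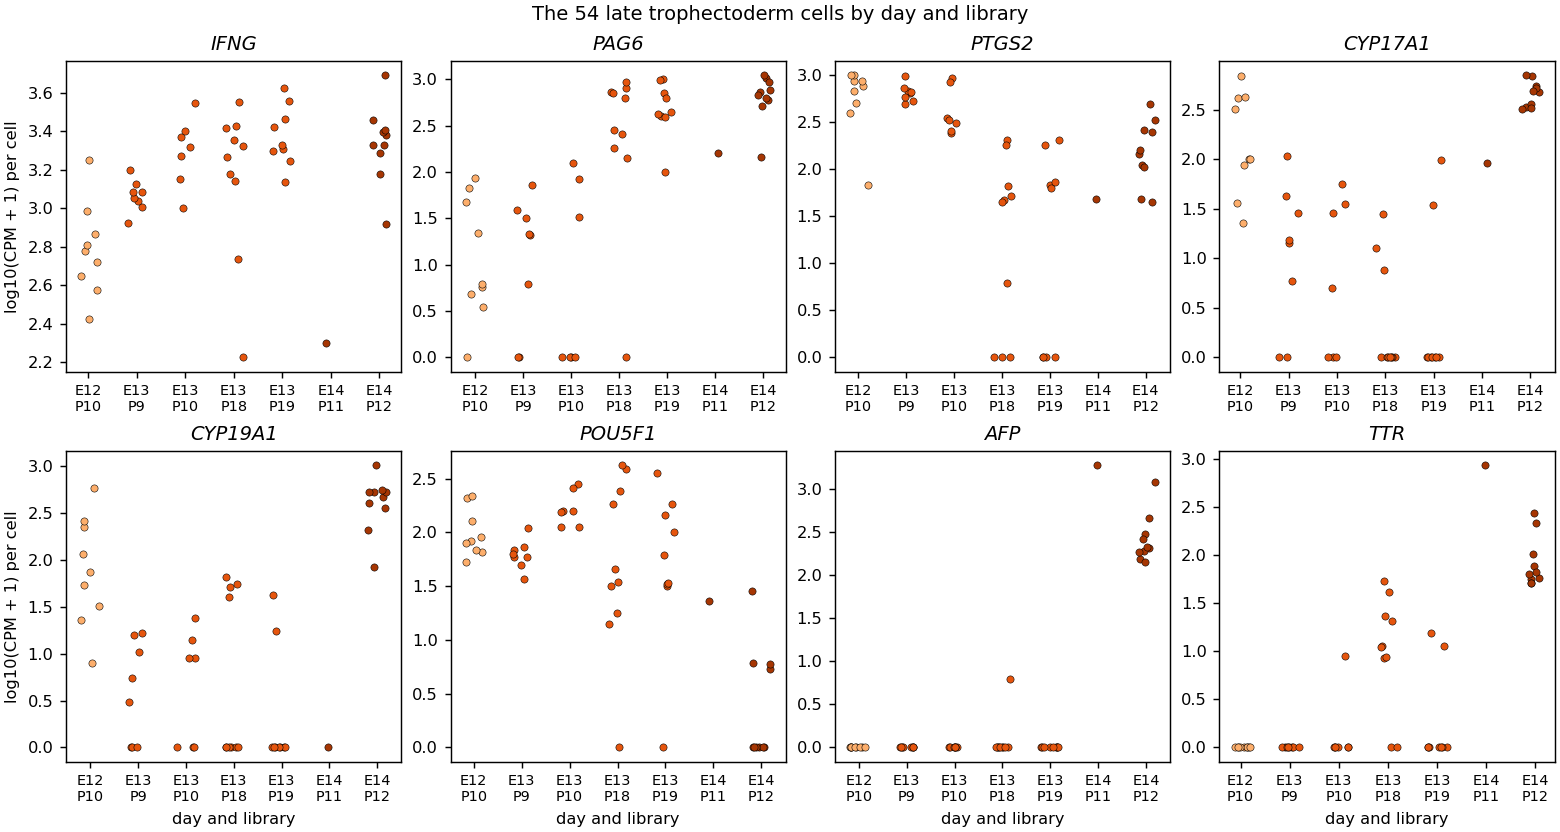
The 54 late cells by day and library, each point 1 cell on the scale of log10(CPM + 1). IFNG is above 0 in every cell, CYP17A1 and CYP19A1 are highest at E12 and in E14 cells of P12, PTGS2 is higher in E13 cells of P9 and P10 than in those of P18 and P19, and AFP and TTR are highest at E14.

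Among junction genes CLDN3 and CLDN10 rose and DSP, DSG2 and OCLN fell. Of 18 keratin and adhesion genes tested 2 rose and 3 fell, with a list median of -0.29. CLDN3, with 49.1, 18.995, 119.5, 159.6 and 85.9 CPM in late trophectoderm, and CLDN10, with 0, 12.8, 106, 63.0 and 34.5 CPM, are tight junction claudins that had no more than 0.902 CPM in any earlier sum (6.75 ± 0.87 for CLDN10, adjusted p = 3.01e-07). CLDN10 was lower in late trophectoderm than in the other cells of the same day in all 4 libraries that held both. DSP, desmoplakin, had 115, 154, 134, 105 and 128 CPM in late trophectoderm, against 260.3, 484 and 578 CPM (-1.86 ± 0.30, adjusted p = 2.16e-05), and DSG2, a desmosomal cadherin, fell by 1.35 ± 0.34 on the log2 scale (adjusted p = 0.00621). OCLN, occludin, fell by 1.46 ± 0.46, a call lost without P3, P4, P5, P6, P8, P12 or P19 (adjusted p up to 0.0718). KRT18 had 1402, 1260.5, 1020.3, 992 and 263 CPM in late trophectoderm, against 1488, 1886 and 2740 CPM, with no overlap (1.12% of all genes did so in this direction), but its change of -1.004 ± 0.40 missed the threshold (adjusted p = 0.106). KRT8 (-0.84 ± 0.52), CDH1 (-0.09 ± 0.29) and CLDN4 (-0.19 ± 0.42) did not pass, nor did the other claudins and desmosomal genes of the list.

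Of 21 matrix and integrin genes tested 7 rose and 2 fell, with a list median of 0.43, and 4 and 1 of these kept their call with each library left out in turn. ITGA6, the integrin chain that binds laminin, had 71.7, 96.8, 255, 155 and 382 CPM in late trophectoderm, against 13.97, 28.5 and 53.2 CPM (2.58 ± 0.42, adjusted p = 2.87e-05). Laminin chains went with it, LAMA5 by 2.28 ± 0.48 (adjusted p = 0.000929) and LAMB1 by 1.58 ± 0.32 (adjusted p = 0.000562), as did the gelatinase MMP2, by 4.15 ± 0.80 (adjusted p = 0.000342), although MMP2 stood higher in the other cells of the same day and library. ITGA5, the chain that binds fibronectin, fell: 81.0, 27.6, 26.6, 10.6 and 24.3 CPM in late trophectoderm, against 97.9, 143 and 250.5 CPM (-2.26 ± 0.39, adjusted p = 5.28e-05). These 5 genes showed no overlap between the groups, as did 2.16% of all genes tested in the higher and 1.12% in the lower direction. TIMP3 (2.46 ± 0.63) and ITGB5 (2.15 ± 0.58) lost it without P12 (adjusted p = 0.0779 and 0.222), LAMA1 (-1.51 ± 0.47) without P4, P5, P6, P18 or P19 (adjusted p up to 0.125), and ITGA3 (3.99 ± 1.35) without P3, P4, P6, P8, P9, P12 or P19 (adjusted p up to 0.469).

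Receptors divided evenly, 2 higher and 2 lower of 20 tested, with a list median of 0.25. FGFR2, a receptor of fibroblast growth factors, had 10.2, 36.5, 94.7, 118 and 127 CPM in late trophectoderm, against 0.873, 3.89 and 11.3 CPM (4.06 ± 0.63, adjusted p = 9.69e-06), and FGFR1 rose at lower levels (3.23 ± 0.80, adjusted p = 0.00576), below those of the other cells of the same day and library. IGF2R, which clears IGF2 and sorts lysosomal enzymes, had 38.5, 54.02, 6.35, 8.18 and 30.8 CPM in late trophectoderm, against 127, 194 and 691 CPM (-3.22 ± 0.48, adjusted p = 4.83e-06). IL6ST, the shared receptor chain of the interleukin-6 family, fell by 1.26 ± 0.32 (adjusted p = 0.00603). All 4 kept their call with each library left out. ERBB3, with 974, 951, 1160.0, 1239.7 and 859 CPM in late trophectoderm, against 501, 965 and 1127 CPM, did not pass (0.18 ± 0.18, adjusted p = 0.547).

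Among genes of lipid storage and the lysosome PLIN2 and NPC2 fell. PLIN2, the coat protein of lipid droplets, had 119, 56.1, 67.6, 192 and 19.7 CPM in late trophectoderm, against 663, 829.6 and 1107 CPM (-3.26 ± 0.34, adjusted p = 3.53e-09). NPC2, the lysosomal cholesterol carrier, had 244, 241, 158, 129 and 74.8 CPM, against 767, 983 and 1206 CPM (-2.52 ± 0.25, adjusted p = 1.18e-09). The groups lay far apart in both, and 1.12% of all genes tested had no overlap in this direction. Of 19 lipid genes tested 1 rose and 3 fell, with a list median of -0.20: APOB, the lipoprotein scaffold, rose with 0, 1.19, 8.08, 21.3 and 40.3 CPM in late trophectoderm, 131 of its 175 late counts lying in P12, against 3 counts in earlier trophectoderm, FABP3, a fatty acid carrier, fell by 0.79 ± 0.19, and ACSL1 (-1.40 ± 0.45) lost its call without P3, P4, P5, P6, P12 or P19 (adjusted p up to 0.129).

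Of 14 lysosomal genes 2 rose and 5 fell, with a list median of -0.07. PSAP, the precursor of the saposins, fell by 2.57 ± 0.37 (adjusted p = 3.08e-06) and the protease LGMN by 1.46 ± 0.29 (adjusted p = 0.000584). The protease CTSD fell by 1.44 ± 0.36 but lost its call without P9 (adjusted p = 0.0619), and LAMP2, a lysosomal membrane protein, fell by 0.76 ± 0.21 and lost it without P4 or P18 (adjusted p up to 0.0799). CTSB, a cysteine protease, went up: 123, 148, 220, 281 and 564 CPM in late trophectoderm, against 7.39, 41.0 and 91.6 CPM (2.52 ± 0.40, adjusted p = 1.4e-05). Its inhibitor CST3 rose by 1.81 ± 0.39, a call lost without P12 (adjusted p = 0.0595). CTSL, with 551, 497, 1601, 2001.5 and 1558 CPM in late trophectoderm, against 78.6, 404 and 517 CPM, stood just outside the threshold (1.88 ± 0.64, adjusted p = 0.0509).

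Among nutrient carriers 5 rose and 2 fell of 18 tested, with a list median of 0.85. SLC38A2, a carrier of small neutral amino acids, had 91.2, 25.8, 169, 247 and 153 CPM in late trophectoderm, against 5.54, 10.2 and 39.6 CPM (2.88 ± 0.51, adjusted p = 0.000106), where the late sum of P10 lay inside the earlier range. SLC7A8, of the large neutral amino acid carriers, had 309, 230.3, 107, 84.3 and 103 CPM in late trophectoderm, against 550.2, 668 and 1164 CPM (-2.13 ± 0.34, adjusted p = 1.49e-05). Those 2 kept their call with each library left out. The others did not: TRPV6, a calcium channel, lost it without P12 (adjusted p = 0.0907), S100G, a calcium carrier, without P4, P8 or P12 (up to 0.066), SLC2A3, a glucose carrier, without P3, P4, P8, P12 or P18 (up to 0.218), SLC1A5 without P3, P4, P6, P8, P10, P12 or P18 (up to 0.128) and SLC3A2 without P4, P12, P18 or P19 (up to 0.0666).

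Genes of polyamine and arginine metabolism, a pathway known from studies of conceptus growth, changed in both directions. Of 15 tested 3 rose and 4 fell, with a list median of -0.53. OAZ2, an antizyme that marks ornithine decarboxylase for degradation, had 64.2, 29.98, 56.6, 67.1 and 87.1 CPM in late trophectoderm, against 4.37, 12.8 and 14.8 CPM (2.46 ± 0.41, adjusted p = 3.5e-05). AZIN1, which inhibits antizymes, had 147, 155, 53.1, 86.7 and 103 CPM, against 159, 223 and 275 CPM (-1.02 ± 0.24, adjusted p = 0.00301). ODC1, ornithine decarboxylase itself, fell by 1.05 ± 0.25 (adjusted p = 0.0042) and the arginase ARG2 by 1.06 ± 0.26 (adjusted p = 0.0049). Inside P9, without TMM factors, ODC1 was lower in late cells too (430.7 against 1382 CPM). ARG2 ran the other way there, with 117.7 CPM in late against 62.7 CPM in earlier cells. ASL, which makes arginine, rose by 1.44 ± 0.37 (adjusted p = 0.00758), but with the E6 cells added to the earlier side its change was -0.13 and not called (adjusted p = 0.923). ARG1, the other arginase (-4.65 ± 1.09), lost its call without P8 (adjusted p = 0.106) and SMS, spermine synthase (0.89 ± 0.23), without P12 (adjusted p = 0.0692).

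Of 22 genes of the actin skeleton 5 rose and 1 fell, with a list median of -0.22. TPM4, a tropomyosin, had 961, 768, 1057, 1178 and 527 CPM in late trophectoderm, against 66.5, 244 and 307 CPM (1.99 ± 0.35, adjusted p = 8.41e-05). TMSB4X, which holds actin monomers, had 1355, 1261, 3602, 4384 and 1026 CPM in late trophectoderm, against 395, 562 and 1229.6 CPM (1.83 ± 0.27, adjusted p = 5.05e-06), so that the late sum of P12 lay inside the earlier range. TMSB10 (0.73 ± 0.18) and CNN2 (2.06 ± 0.50) rose as well, and TAGLN (2.63 ± 0.67) lost its call without P9 (adjusted p = 0.19). EZR, ezrin, which ties actin to microvilli, had 594, 544, 386, 615 and 240.4 CPM in late trophectoderm, against 960.1, 1086 and 1414 CPM (-1.21 ± 0.19, adjusted p = 1.03e-05).

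**Figure D4:**
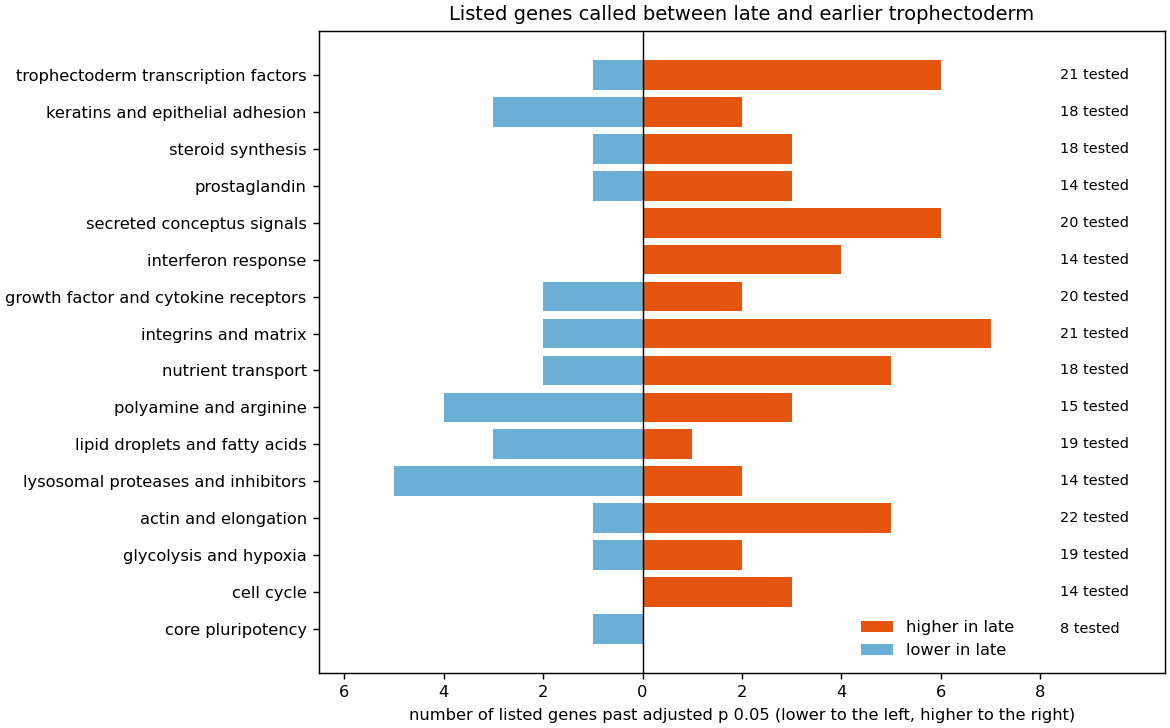
Number of genes of each list past an adjusted p of 0.05, lower in late trophectoderm to the left and higher to the right, with the number tested beside each bar. Matrix and integrin genes have 7 higher, and lysosomal genes have 5 lower. Over all genes tested 6.51% were higher and 3.36% lower.

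Most genes of the cell cycle and of glycolysis did not pass. Of 14 cell cycle genes 3 rose and none fell, against 6.51% and 3.36% of all genes tested, with a list median of 0.03. CCND1, the cyclin that starts the cycle, had 177, 181, 49.1, 98.2 and 98.2 CPM in late trophectoderm, against 0, 2.50 and 9.24 CPM (5.44 ± 0.71, adjusted p = 4.04e-07). CCND2 (2.24 ± 0.64) lost its call without P8 or P18 (adjusted p up to 0.11), and the inhibitor CDKN1C (2.34 ± 0.66) without P12 or P19 (up to 0.157). Of 19 genes of glycolysis and hypoxia 2 rose and 1 fell, with a list median of 0.36: PKM, pyruvate kinase, by 0.88 ± 0.20 (adjusted p = 0.00211), GPI by 0.70 ± 0.22, lost without P8, P12 or P19 (up to 0.145), and BNIP3 by -1.09 ± 0.37, lost without P4, P5, P6, P8, P9, P10, P18 or P19 (up to 0.517).

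Of 8 core pluripotency genes DPPA2 fell (-2.13 ± 0.60, lost without P18, adjusted p = 0.06246) and none rose, with a list median of -0.26. POU5F1, the pluripotency factor OCT4, had 67.3, 112, 129, 64.6 and 1.54 CPM in late trophectoderm, against 11.2, 38.3 and 155 CPM, with no difference past the threshold (0.32 ± 0.52, adjusted p = 0.758). That contrast averages over an uneven course of POU5F1. The authors' deposited means of log2(CPM/10 + 1) were 1.262 at E10, 3.432 at E12, 3.131 at E13 and 0.4808 at E14. SOX2 and NANOG were at most 13.3 and 4.87 CPM in the late sums. DNMT3B, a methyltransferase of the marker list of epiblast and ectoderm, had 258, 292, 511, 416 and 179 CPM in late trophectoderm, against 31.5, 65.7 and 104 CPM (2.30 ± 0.49, adjusted p = 0.00119), the 1 gene of 5 in that list to pass. Of 9 markers of hypoblast and extraembryonic endoderm GATA6 fell (-2.30 ± 0.47), and of 4 of the amnion GABRP rose (5.89 ± 1.30). Of 8 mesoderm markers HAND1, COL3A1 and VIM rose, the last lost without P3, P4, P8, P12 or P18 (adjusted p up to 0.329). None of the 3 trophectoderm markers given above, of 4 more trophectoderm markers or of 5 of blood and uterine cells passed. The summed level of those blood and uterine markers was 40.7 to 106 CPM in the day sums of late trophectoderm with at least 5 cells, against 109 to 157 CPM in the other cells of the same days. The 4 further trophectoderm markers summed to 1927, 2017, 2020 and 1278 CPM in late trophectoderm of P10 (E12), P18, P19 and P12. The other cells of the same day held 1147, 1474, 1504 and 1273 CPM. For the 5 epiblast and ectoderm markers the sums were 407.4, 701.1, 475.5 and 203 CPM, against 992.5, 651, 650.7 and 143 CPM in those cells. The 8 mesoderm markers together, HAND1 included, stood at 410 to 1010 CPM in the sums of late trophectoderm, against 3.67 to 96.9 CPM in the tested sums of earlier trophectoderm by day. Most of this was HAND1: without it the sums stood at 12.4 to 93.5 CPM at E12 and E13 and 418 CPM in P12, against 3.67 to 75.5 CPM. With HAND1, the other cells of the same days and libraries held 383 to 1118 CPM over the 8 mesoderm markers. TBXT, the mesoderm factor brachyury, had a count in 1 of the 54 late cells. Their part in these results was not tested.

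P12 differed from the other late sums in RNA that other cell types define. AFP and TTR, products of the visceral endoderm, and the collagen gene COL3A1 stood at 257, 90.5 and 122 CPM in its E14 trophectoderm and had counts in all 10 cells. P12 was not alone in this: the single E14 cell of P11, outside the sums, had 1914, 856 and 252 CPM. At E12 and E13 the highest sums of AFP, TTR and COL3A1 were 0.596, 16.7 and 7.15 CPM. In the other E14 cells of P12 the same genes stood at 164, 71.8 and 211 CPM, and all 81 of those cells had counts of each. COL3A1 lost its call between late and earlier trophectoderm without P12 (adjusted p = 0.948), and AFP did not pass (4.4997 ± 1.56, adjusted p = 0.0593). Over the whole list of 9 hypoblast and extraembryonic endoderm markers the summed level was 811 CPM in E14 trophectoderm of P12, against 757 CPM in its other cells, and 505 to 1493 CPM in trophectoderm of E12 and E13, where AFP was at 0 in all sums but P18. The part of such RNA in the E14 values was not tested.

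Between the days no test was possible, since E12 lay in 1 library and E14 had 1 library with at least 5 cells. Inside P10, which held 9 cells of E12 and 7 of E13, 196 of 4765 genes with at least 50 CPM on either side were at least 4-fold higher at E12 (4.11%) and 66 at E13 (1.39%). Of 142 listed genes 6 were higher at E12, CYP17A1, CYP19A1, STAR, CCND1, CTSZ and OVOL1, and 2 at E13, TAGLN and SLC38A2. CYP17A1 had 16.2 CPM at E13 against 264 CPM at E12, CYP19A1 7.35 against 176 CPM and STAR 49.96 against 287 CPM. TAGLN, a smooth muscle actin binder, had 129 CPM at E13 against 5.49 CPM at E12. The E13 cells of P10 were shallower, with a median of 76371 counts against 264350 at E12, and IFNG ran the other way, with 2016 CPM at E13 against 618 CPM at E12.

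E14 of P12 was set beside the 4 sums of E13 in the same manner: 148 of 4989 genes were at least 4-fold above every E13 sum (2.97%) and 20 at least 4-fold below (0.401%). Of 159 listed genes 11 were above and 2 below. SLC2A2, a glucose carrier of liver and yolk sac, had 227 CPM at E14, against 5.12 CPM or less at E13, and was in all 10 cells of P12. SLCO2A1, which takes up prostaglandins, had 149 CPM against 2.94 CPM or less, and TGFB1 had 131 CPM against 7.35 CPM or less. CYP17A1, CYP19A1, AFP, TTR, COL3A1 and COL1A2 were also among the 11. Those below were CYP11A1 and POU5F1: POU5F1 had 1.604 CPM at E14, with counts in 4 of 10 cells, against 60.4 to 175 CPM at E13. The single E14 cell of P11 had 22.0 CPM of POU5F1, 91.5 CPM of CYP17A1, 198 CPM of IFNG and no count of CYP11A1 or CYP19A1.

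At E13 the 4 libraries fell into pairs. P9 and P10 held no other cell of E13, their other cells being of E7 and E12, while P18 and P19 held the ectoderm, mesoderm and endoderm of E13. HSD17B1 had 763 and 886 CPM in P9 and P10 and 177.5 and 89.4 CPM in P18 and P19. PTGS2 had 640.1 and 541 CPM in P9 and P10 and 66.1 and 69.6 CPM in P18 and P19, and PTGES had 381 and 373 CPM and 66.1 and 39.8 CPM in the same order. PAG6 went the opposite way, with 20.5 and 55.8 CPM in P9 and P10 and 517 and 682 CPM in P18 and P19. In all, 21 of 3865 genes with a mean of 50 CPM were at least 4-fold higher in both P9 and P10 than in P18 and P19 (0.543%) and 29 were lower (0.75%). Of 127 listed genes 5 were higher, the others being TAGLN and LPAR3, a receptor of lysophosphatidic acid, and 3 were lower, PAG6, WNT7A and TP63. The pairing was noticed in the data and was not tested.

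Beside the other cells of the same day and library, where both share capture and sequencing, late trophectoderm was at least 4-fold higher in all 4 libraries in 147 of 5263 genes with at least 50 CPM on a side (2.79%), and lower in 62 (1.18%). This is a description without a test, since the authors formed the groups from these cells. In P10 the other cells were 26 of ectoderm, 20 of mesoderm and 18 of endoderm. Elsewhere they were mostly ectoderm, 41 of 56 cells in P18, 44 of 61 in P19 and 74 of 81 in P12. The lineages were not set beside late trophectoderm 1 by 1, and this make-up cannot be told apart from day or library. Of 11 listed transcription factors at that level 6 were higher, GATA3, GATA2, TFAP2A, PPARG, ELF3 and OVOL1. IFNG had 618, 2069.8, 2744 and 2151 CPM in late trophectoderm of P10, P18, P19 and P12, against 31.9, 54.2, 19.3 and 141 CPM in the other cells. PAG6 had 19.995, 517, 682 and 718 CPM, against 0.468, 5.97, 2.13 and 19.9 CPM, and WNT7A had 29.0, 81.6, 92.5 and 114 CPM, against 0.802, 0.630, 0.742 and 7.44 CPM. HAND1 was higher in all 4 but past 4-fold in P10, P18 and P19 alone, with 592 CPM in late trophectoderm of P12 against 246 CPM in its other cells.

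Some genes that rose between earlier and late trophectoderm were lower there than in the other cells of the same day and library. Of 66 named genes that rose and could be set beside those cells, 25 were higher in late trophectoderm in all 4 libraries and 13 were lower in all 4: CLDN10, MMP2, FGFR1, CCND2, CNN2, COL3A1, CST3, GPI, IFNAR2, PKM, SLC1A5, TAGLN and VIM. The same count was not made over all genes, so neither number can be set against a background. Over all 5263 genes with at least 50 CPM on a side, the median of the mean log2 ratio was -0.25. CLDN10 had 10.2, 109, 58.9 and 35.9 CPM in late trophectoderm of P10, P18, P19 and P12, against 68.5, 234, 243 and 88.7 CPM in the other cells. MMP2 had 16.9, 35.1, 8.41 and 37.2 CPM in late trophectoderm, against 84.8, 75.6, 79.99 and 116.6 CPM. FGFR1 had 2.35, 13.1, 9.17 and 16.7 CPM in late trophectoderm, against 48.5, 43.1, 33.3 and 64.0 CPM. The part of RNA from other cells in these changes was not tested.

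**Figure D5:**
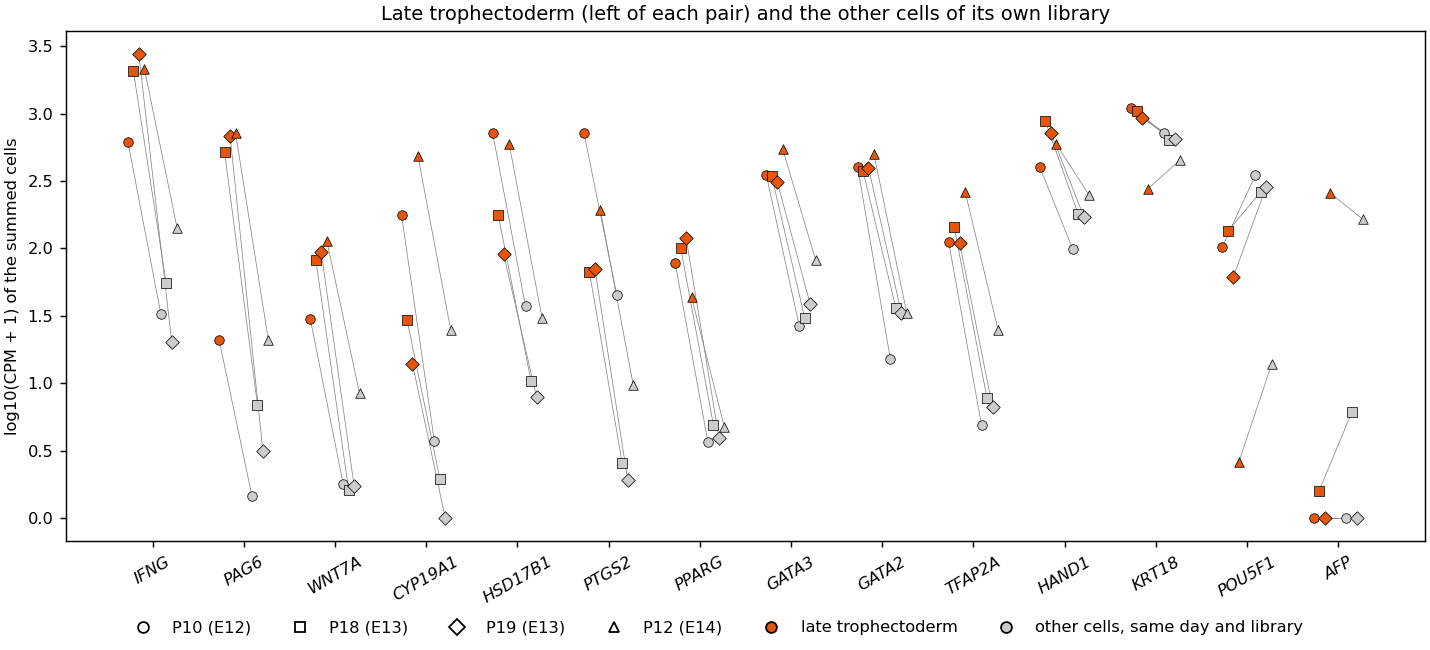
Late trophectoderm (orange, left of each pair) and the other cells of the same day and library (grey, right), as log10(CPM + 1) of the summed cells in P10, P18, P19 and P12. IFNG, PAG6, CYP19A1 and GATA3 are higher in late trophectoderm of all 4 libraries, POU5F1 is lower, and KRT18 is lower in P12 only.

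CYP19A1 had 176, 28.6, 12.996 and 484 CPM in late trophectoderm of those libraries, against 2.74, 0.966, 0 and 23.7 CPM in the other cells, with 0 of 61 such cells of P19 holding a count, which allows a share of cells with a count of up to 4.92% and sets no limit on cells that express the gene below this depth. HSD17B1 and PTGS2 were likewise past 4-fold in all 4, and so were KRT7, the protease CTSL and the inhibitor CST6. CYP11A1 was past it in P10, P18 and P19, with 420 against 14.9 CPM in P10, but had 15.7 against 4.94 CPM in P12. Low counts of these genes in other cells were widespread: IFNG had a count in all 54 late cells, at a median depth of 204049.5 counts, and in 98.5% of the 262 others, at 312800 counts. Thinned to 30000 counts per cell, the share was 100% of 53 late cells and 67.3% of 254 others, with 1 and 8 shallower cells left out. IFNG in the other cells stood at 19.3 to 141 CPM, and whether those counts are expression was not tested. A late IFNG value of that size could not be told from that level. The level in other cells differed from gene to gene. STAR in E13 and E14 stood near its own, with 31.0, 18.3 and 27.3 CPM in late trophectoderm of P18, P19 and P12. The other cells had 43.3, 31.7 and 20.9 CPM of STAR.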

How the data were processed

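Single cells of pig embryos were sequenced in 20 libraries. The authors deposited counts per gene and cell, made with STAR 2.7.1a, featureCounts 1.6.4 and UMI-tools on Sscrofa11.1, per the submitters' processing notes, which do not give the role of each tool. They also deposited, for 39 cell groups, the mean and the SD of log2(CPM/10 + 1), a scale inferred from the recomputed values. Cells were tied to groups through those means over 23601 genes. Counts of at least 5 cells were summed per library, and 22780 genes that passed edgeR's filter on low counts were fitted over all embryonic sums with TMM and a trended dispersion (edgeR 4.0.16, limma 3.58.1, R 4.3.3). P-values were Benjamini-Hochberg adjusted over all genes tested, and the SE is the log2 change divided by the root of F. A library served as the replicate. The labels do not tie libraries to separate embryos, so the p-values speak of variation among libraries only, which may be technical. DESeq2 1.42.0 served as an alternative, and Python 3.11.15 with numpy 2.4.6, pandas 2.3.3, scipy 1.17.1 and matplotlib 3.10.9 for the rest.

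The members, gene lists and tests were chosen with earlier results of these data known. Named genes were the 12 with the largest log2 change in each direction among called genes with a symbol and at least 50 CPM in the higher group whose sums did not overlap (ribosomal protein and mitochondrial genes left out), plus list members. Steps between days were planned as tests but had too few libraries. Levels beside other cells are sums without a test; a gene had to reach 50 CPM on a side, and 4-fold was the line, with 1 CPM added. Doublets were not called. Some list members are counted but not reported here by name. Coordinates are from RefSeq, Sscrofa11.1.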

Additional observations from a re-analysis of the deposited data

Results flagged for a closer look

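Single sums stood apart from the rest of their group in 33 of 282 groups of sums examined by the size of the gap. The chance rate of this rule, about 1 in 20, does not hold where a single sum had counts and the others had none. Such a sum is flagged however small it is. The number of flags therefore cannot be set against that rate. Several were of late trophectoderm in P12: AFP at 246.9 CPM, SLC2A2 at 217.9 CPM and GATA3 at 520.5 CPM were above the other late sums, and KRT18 at 263.5 CPM, CYP11A1 at 15.08 CPM and POU5F1 at 1.539 CPM below them. In P9, late trophectoderm was highest in ESRRB at 10.62 CPM, TRIM15 at 11.06 CPM, P2RX1 at 8.408 CPM and FYB1 at 2.213 CPM. In P19 it was lowest in OCLN, at 22.91 CPM, and in OVOL1, at 21.28 CPM.

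Earlier trophectoderm of P9, 5 cells of E7, stood apart in AKR1B1 at 99.78 CPM, ARG2 at 57.28 CPM, CST3 at 14.78 CPM, ERBB3 at 500.7 CPM, IL6ST at 125.6 CPM, PKM at 177.4 CPM, SLC7A8 at 1164 CPM and TPM4 at 66.52 CPM. Other such earlier sums were EZR at 1414 CPM in P6, FYB1 at 35.91 CPM in P3, and AFP at 10.92 CPM and TTR at 10.04 CPM in P8. The rest rested on a few counts in 1 earlier sum: ADAM28 at 0.63 CPM in P3, SPP1 at 0.8173 CPM in P4, ATP10B and PGF at 1.353 CPM and S100G and TBXAS1 at 0.4511 CPM in P5, CLDN3 at 0.8616 CPM in P6, and PAG6 at 0.4367 CPM and PROM2 at 0.8734 CPM in P8.

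Outside the tested sums, the single E14 cell of P11 held AFP at 1914 CPM and TTR at 856 CPM.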

How the results depend on the processing

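The 2249 genes called between late and earlier trophectoderm became 1325 with at least 10 cells per sum, 787 of 9825 tested (8.01%, against 9.87%) with only trophectoderm sums in the fit and, in a comparison added after seeing the data, 327 for E13 against E10. Leaving out each library in turn gave 1430 to 2538 calls, lowest without P12 and highest without P9. DESeq2 called 3272. Of 142 named genes tested, 106 were called, 69 of them in every leave-one-out fit and 58 in all settings other than E13 against E10, where 71 of the 106 lost the call or turned. Signs turned for SLC2A3 (-0.35) and COL3A1 (-0.61) at E13 against E10, for SLC2A2 (-3.63) without P12, where it was then called lower though it did not pass with it (0.40), for ASL (-0.13) with E6 added and for BNIP3 (0.045) with at least 10 cells per sum. The cause was not tested. Beside other cells of the same library, 209 genes were past 4-fold in every library, 642 past 2-fold and 73 past 8-fold. Leaving out each library, added after seeing the data, gave 225 to 293. Tests of the steps between days, and their alternatives, were not run, since E12 had 1 library and E14 had 1 with at least 5 cells. No paired analysis was possible because replicate numbers were given in accession order and only P9 held both sides. A sum of 3 counts was the floor, 0.257 CPM over the late and 0.277 CPM over the earlier sums.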
